A study of Mus musculus with 4 samples.

Results

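The 4 mouse Hox clusters were examined for HTATSF1 peaks, using 4 windows of mm9: chr6:52100000-52220000 (Hoxa), chr11:96050000-96240000 (Hoxb), chr15:102740000-102880000 (Hoxc) and chr2:74480000-74620000 (Hoxd). A peak was a member when it overlapped a window by at least 1 bp. By this rule, 20 of 19489 peaks of replicate 1 and 10 of 14118 peaks of replicate 2 were members. The windows were set by position, not by any measured value.

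The peaks came from ChIP-seq of HTATSF1, a nuclear RNA-binding protein known to associate with the splicing machinery, in mouse embryonic stem cells. The line derived from tatsf1 flox/flox CreERT2 mice, in which the gene can be removed by an inducible Cre recombinase, and every library came from untreated cells kept on embryonic fibroblast feeders (MEFs). The series held 2 immunoprecipitated libraries, precipitated with a rabbit antibody to a mouse HTATSF1 peptide, and 2 input libraries, whose values were not analysed here. The labels do not say whether the replicates were separate cultures, or whether feeder cells were removed before the chromatin was taken, so the spread between replicates may be technical. Peak lists carry no expression, so the stem cell identity could not be checked against marker genes. The files do not give the sequencing depth, so values carry no read-based interval, and a place without a peak is not shown to be free of HTATSF1.

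Hox genes encode homeodomain transcription factors that give cells along the head-to-tail axis their regional identity. Within a cluster, the genes lie in the order of the body regions in which they act and share 1 direction of transcription. In embryonic stem cells the clusters are known to be mostly silent, held by Polycomb complexes, with histone marks of activation and of repression at the same promoters.

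The member genes numbered 38, and all 38 matched a symbol in the RefSeq table of GRCm38. In that table the 10 Hoxa members run, along the chromosome, from Hoxa2, which patterns the hindbrain and the second pharyngeal arch, through Hoxa3, Hoxa4, Hoxa5 (airway and lung), Hoxa6, Hoxa7, Hoxa9 (blood progenitors), Hoxa10 (uterus) and Hoxa11 (forelimb and kidney) to Hoxa13 (digits and genital tubercle). The 10 Hoxb members run the other way in body position, from Hoxb13, which acts in the tail and prostate, through Hoxb9, Hoxb8, Hoxb7, Hoxb6, Hoxb5, Hoxb3, Hoxb4 and Hoxb2 to Hoxb1, which acts in the hindbrain. The 9 Hoxc members run from Hoxc13, needed for hair and nails, through Hoxc12, Hoxc11, Hoxc10, Hoxc9, Hoxc8, Hoxc6 and Hoxc5 to Hoxc4. The 9 Hoxd members run from Hoxd13, a digit gene, through Hoxd12, Hoxd11, Hoxd10, Hoxd9, Hoxd8, Hoxd3 and Hoxd4 to Hoxd1. Members are ordered here by the lowest coordinate of each gene record, whichever end of the gene that is. The listing of Hoxb3 before Hoxb4 and of Hoxd3 before Hoxd4 is therefore not shown to be the order of their start sites. The table is of another build than the peaks, so only this order was used. No peak below is assigned to a gene, exon, intron or UTR, and no member gene has a value of its own. The DNA sequence under the peaks is not printed, because no genome of mm9 was used.

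HTATSF1 peaks were present in all 4 windows in both lists. In replicate 1 the Hoxa window held 6 peaks, the Hoxb window 6, the Hoxc window 5 and the Hoxd window 3. In replicate 2 they held 1, 3, 2 and 4. The replicate 2 count was thus lower at Hoxa, Hoxb and Hoxc and higher at Hoxd. The lists differ in length: when replicate 1 is cut to its 14118 highest-scored peaks, a comparison added after the data were seen, 11 members are left, 2 at Hoxa, 5 at Hoxb, 2 at Hoxc and 2 at Hoxd. Below the list median lay 14 of the 20 peaks of replicate 1 and 5 of the 10 of replicate 2. In all, 5 places were found in both lists: 3 at Hoxb, 1 at Hoxc, 1 at Hoxd and none at Hoxa. The place at Hoxd is lost in lists of equal length. The map of the windows shows every member by position and rank.

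**Figure D1:**
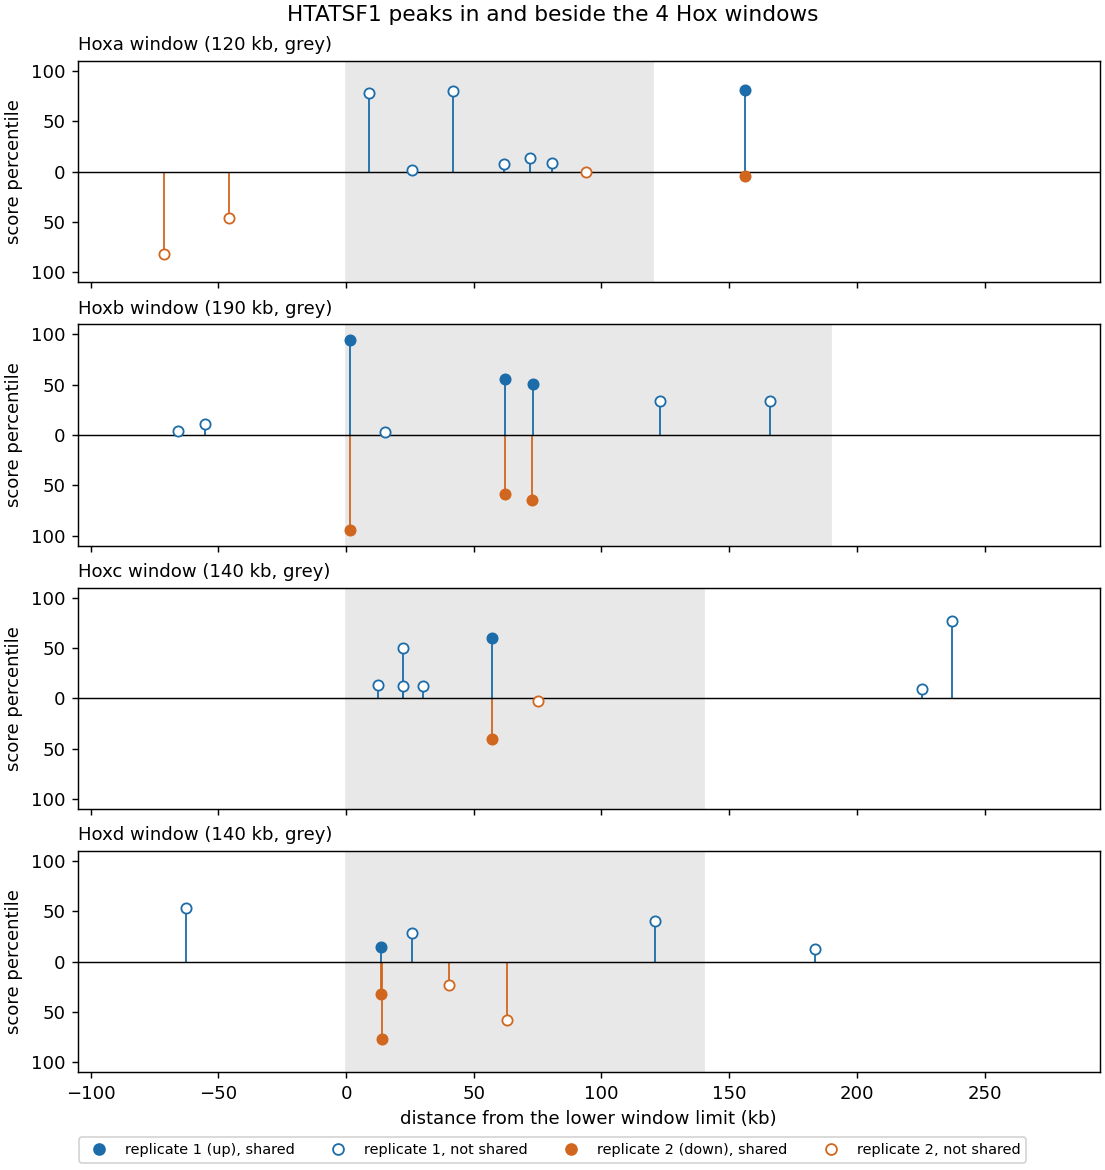
Each panel plots HTATSF1 peaks against distance from the lower limit of a Hox window (kb), with 100 kb on both sides and the window in grey; stems give the percentile of the score within its list, upward for replicate 1 and downward for replicate 2. Filled points overlap a peak of the other list; the Hoxb window holds 3 such pairs, and the Hoxa window none.

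The Hoxb window held the best supported peaks. Its first, at chr11:96051475-96052010 in replicate 1, was 536 bp wide with a score of 256.3, and it overlapped a replicate 2 peak at chr11:96051451-96051796 with a score of 176.9. The score is the authors' value from their peak caller; its scale is not stated, so lists are compared by percentile, the percentage of a list's peaks with an equal or lower score. This pair lay at the 95.0th percentile of replicate 1 and the 94.2nd of replicate 2, the only member in the top 10% of either list. It lay 1.47 kb inside the lower limit of the window, so a slightly narrower window would leave it out. In the gene order of GRCm38, Hoxb13 is the member at that end of the cluster, but whether the peak lies at Hoxb13 was not tested.

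Both other shared Hoxb peaks ranked in the middle of the lists. At chr11:96112181-96112583 replicate 1 had a score of 95.7 (percentile 55.4), and the whole of this 403 bp peak lay within the replicate 2 peak at chr11:96112119-96112590, which had a score of 80.8 (percentile 58.7). Further on, chr11:96122859-96123200 scored 89.8 in replicate 1 (percentile 51.2). It contained the replicate 2 peak chr11:96122878-96123129, which scored 87.8 (percentile 64.8). All 3 replicate 2 peaks of the Hoxb window were therefore also found in replicate 1. The remaining 3 replicate 1 peaks were not found in replicate 2. They lay at chr11:96065249-96065461 (score 51.5, percentile 3.16), chr11:96172917-96173217 (70.9, percentile 34.3) and chr11:96215808-96216113 (70.4, percentile 33.4), and the nearest replicate 2 peak was 13.5, 49.8 and 92.7 kb away.

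The Hoxc window had a single shared place. In replicate 1 it was chr15:102796803-102797221, with a score of 103.1, the highest of the window (percentile 59.6). The replicate 2 peak chr15:102796864-102797092 lay wholly inside it and scored 65.7 (percentile 40.1). The other 4 replicate 1 peaks lay toward the lower limit. They were chr15:102752212-102752502 (score 56.1), chr15:102762060-102762240 (55.6), chr15:102762250-102762540 (87.8) and chr15:102770152-102770349 (56.0). The second and the third of these nearly touch and may be read as 1 region. In replicate 2 the only other peak was chr15:102815113-102815237, with a score of 50.8 (percentile 2.86), near the lowest score in that list. In the gene order of GRCm38 the lower end is that of Hoxc13 and the upper end that of Hoxc4.

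At Hoxd the shared place was made of short pieces. The replicate 1 peak chr2:74493576-74493791, with a score of 57.4 (percentile 14.7), overlapped 2 replicate 2 peaks, by 170 bp in all. These were chr2:74493488-74493696 (score 61.0, percentile 31.9) and chr2:74493743-74494171 (106.1, percentile 76.7). The ranks of this place thus differed between the lists. The other replicate 1 peaks were chr2:74505828-74506119 (score 66.1, percentile 28.1) and chr2:74600899-74601186 (77.3, percentile 40.8). Replicate 2 instead had chr2:74520370-74520525 (57.2, percentile 22.8) and chr2:74542760-74542915 (80.2, percentile 58.2), each 156 bp wide. Of these 4 unshared peaks, the closest to a peak of the other list was 11.7 kb from it. In the gene order of GRCm38, Hoxd13 is the member at the lower end and Hoxd1 the member at the upper end. Evx2, which is not a member, comes directly before Hoxd13. Whether the shared place lies at Hoxd13 or at Evx2 was not tested.

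At Hoxa no place was found in both lists. The highest-ranked replicate 1 peaks of the window were at chr6:52108764-52109049 (score 147.1, percentile 77.8) and chr6:52141757-52142098 (155.5, percentile 80.2). The nearest replicate 2 peaks were 54.6 and 51.7 kb away. When replicate 1 is divided by score rank into 10 equal groups (deciles), 63.2% and 71.4% of all peaks in the deciles of these peaks were shared. The other 4 replicate 1 peaks had scores of 50.9, 53.4, 56.3 and 53.8, at percentiles 2.05 to 13.2, and were 177 to 200 bp wide. They began at 52125943, 52161705, 52171793 and 52180472. The only replicate 2 peak, chr6:52193834-52193994, had a score of 50.2 (percentile 0.687) and lay 13.2 kb from the nearest replicate 1 peak. In the gene order of GRCm38 the lower end holds Hoxa2 and the upper end Hoxa13.

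The Hox peaks were too few to show a difference in the shared part from that of the lists. In replicate 1, 5 of 20 members (25%, exact Clopper-Pearson 95% interval 8.66 to 49.1%) overlapped a replicate 2 peak, where 45.6% of the whole list did. In replicate 2, 6 of 10 (60%, 26.2 to 87.8%) overlapped a replicate 1 peak, against 65.2% of the list. Both list shares lie inside the intervals, which cover counting error only. The intervals are wide, so a difference is neither shown nor excluded. They also take peaks as independent counts, which neighbouring peaks are not. Of the 6 in replicate 2, 2 at Hoxd overlap the same replicate 1 peak. By window, 0 of 6 replicate 1 peaks were shared at Hoxa (interval 0 to 45.9%), 3 of 6 at Hoxb, 1 of 5 at Hoxc and 1 of 3 at Hoxd. Shares in the flanks, the 1 Mb on each side of each window, were 89 of 192 (46.4%) in replicate 1 and 99 of 129 (76.7%) in replicate 2. By cluster, the flank shares of replicate 1 were 5 of 20 at Hoxa (25%, interval 8.66 to 49.1%), 40 of 85 at Hoxb (47.1%), 37 of 73 at Hoxc (50.7%) and 7 of 14 at Hoxd (50%). The Hoxa flanks thus had a lower share than the pooled flanks.

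Sharing in the whole lists also differs by score. Summed over the members, the shared rates of their score deciles came to 7.09 of 20 in replicate 1 and 6.25 of 10 in replicate 2, beside the 5 and 6 found. The part of score in the members' sharing was not tested. At Hoxa the rates gave 2.17 of 6 in replicate 1 against none found, and at Hoxb 2.65 of 6 against 3. The median percentile of the members was 30.8 in replicate 1, where 14 of 20 scored below the list median of 88.3, and 49.2 in replicate 2, where 5 of 10 scored below the median of 72.4. In the flanks the medians were 46.4 and 56.9. By window, the replicate 1 medians were 11.02 (Hoxa), 42.8 (Hoxb), 13.0 (Hoxc) and 28.1 (Hoxd). The flanks of the same clusters had medians of 33.2, 44.7, 55.4 and 51.3 in that list, so the Hoxb window was close to its own flanks. The lowest 25% of replicate 1 by score held 9 of its 20 members: 4 at Hoxa, 3 at Hoxc and 1 each at Hoxb and Hoxd. In replicate 1 the members had a median width of 289.5 bp, and those of replicate 2 one of 219 bp, where the lists had 402 and 289 bp. The Hoxb members of replicate 2 had a median width of 346 bp, above that of their list, though the peak at chr11:96122878-96123129 was 252 bp wide. The Hoxd peak of 429 bp in replicate 2 was also wider than the list median.

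The number of peaks in each window was set beside the rest of its chromosome. Every window of the same length was laid along the same chromosome in steps of 10 kb, between the first and the last peak of either list. These windows overlap one another, so the percentages below describe the chromosome and are not a test. Many of them held no peak, from 41.4% (chromosome 11) to 68.9% (chromosome 6) in replicate 1 and from 46.6% to 74.8% in replicate 2. At Hoxa, 2.17% of such windows held at least the 6 peaks of replicate 1, but 25.2% held at least the 1 of replicate 2. For Hoxb the percentages were 20% in replicate 1 and 30.4% in replicate 2, for Hoxc 8.93% and 18.2%, and for Hoxd 17.3% and 7%. With replicate 1 cut to as many peaks as replicate 2, the Hoxa percentage was 11.7% and the Hoxc one 18.4%. When only the better-scored 50% of a list was kept, the replicate 1 percentages were 7.57% (Hoxa), 21.6% (Hoxb) and 26.4% (Hoxc), and those of replicate 2 were 15.6% (Hoxb) and 9.48% (Hoxd). The Hoxd window of replicate 1 and the Hoxa and Hoxc windows of replicate 2 then held no peak. The full lists thus differed on which cluster was the fullest for its chromosome: Hoxa in replicate 1 and Hoxd in replicate 2. Hoxb had the highest percentage in both full lists, but beside windows of all autosomes its percentages were 8.02% and 15.4%, and the highest were then those of Hoxd in replicate 1 (15.5%) and Hoxa in replicate 2 (30.7%). The median window held 1 peak on chromosome 11 and 0 on chromosomes 6, 15 and 2, in both lists.

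**Figure D2:**
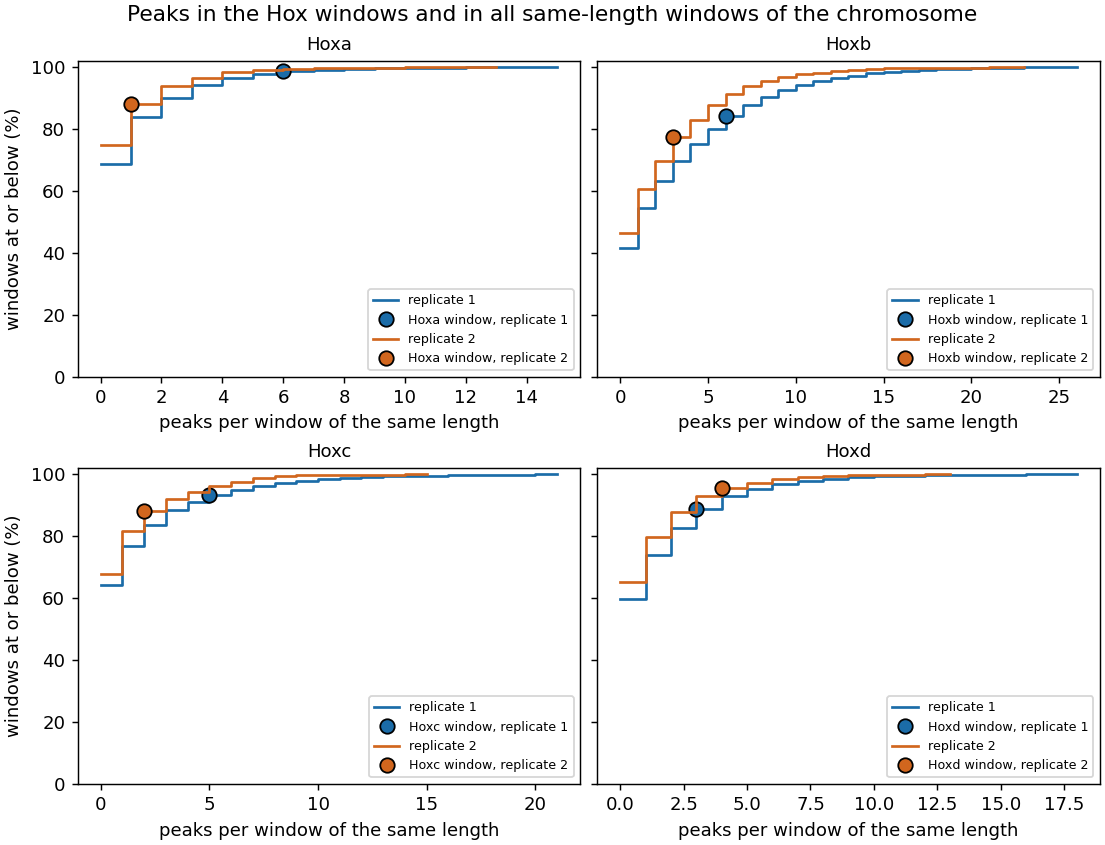
Each panel plots, for all windows of the same length as a Hox window on its chromosome, the cumulative percentage of windows (y) holding at most a given number of HTATSF1 peaks (x), as a line per list. Points mark the Hox window itself; the Hoxa window of replicate 1, with 6 peaks, lies near the top of its line, at 98.7%.

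Against their own flanks the clusters fell into pairs. Hoxa and Hoxd had fewer peaks in their flanks than Hoxb and Hoxc. The Hoxa flanks held 20 peaks in replicate 1 and 9 in replicate 2, and the Hoxd flanks 14 and 8. Beside the whole of chromosome 6, which had 5.97 and 4.15 peaks per Mb, the Hoxa flanks were not poor, with 10 and 4.5 per Mb. The Hoxd flanks, with 7 and 4 per Mb, lay below the 8.26 and 6.02 per Mb of chromosome 2. Peak density in the Hoxd window was 21.4 per Mb against 7 per Mb in its flanks in replicate 1, a ratio of 3.06 (exact 95% interval 0.564 to 10.97), and 28.6 against 4 per Mb in replicate 2, a ratio of 7.14 (1.57 to 26.7). At Hoxa the densities were 50 and 10 per Mb in replicate 1, a ratio of 5 (1.64 to 12.9). In replicate 2 they were 8.33 and 4.5 per Mb, a ratio of 1.85 that rests on 1 peak (0.0423 to 13.4). The Hoxa interval of replicate 1 and the Hoxd interval of replicate 2 lie above 1, and no cluster had this in both lists. The intervals take peaks as independent counts, which neighbouring peaks are not, and so are too narrow.

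Flank counts were higher at Hoxb and Hoxc. Here both the flanks and the windows were denser than the whole chromosome. The same held in both lists for the Hoxa window and flanks and for the Hoxd window, but not for the Hoxd flanks. At Hoxa in replicate 2 the window value rests on 1 peak. Chromosome 11 had 14.98 and 10.76 peaks per Mb in replicates 1 and 2, and chromosome 15 had 8.66 and 6.08. The Hoxb flanks held 85 and 61 peaks, or 42.5 and 30.5 per Mb, and the window 31.6 and 15.8 per Mb, which gave ratios of 0.743 (0.265 to 1.69) and 0.518 (0.104 to 1.59). The Hoxc flanks held 73 and 51 peaks, or 36.5 and 25.5 per Mb, and the window 35.7 and 14.3 per Mb, with ratios of 0.979 (0.309 to 2.39) and 0.560 (0.0661 to 2.13). All 4 intervals include 1, so a difference between either window and its flanks was not shown. The Hoxc ratio of replicate 1 passed to the other side of 1 with flanks of 500 kb (1.12) or 2 Mb (1.40). Over all 4 windows the ratio was 1.41 (0.844 to 2.24) in replicate 1 and 1.05 (0.492 to 1.996) in replicate 2.

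**Figure D3:**
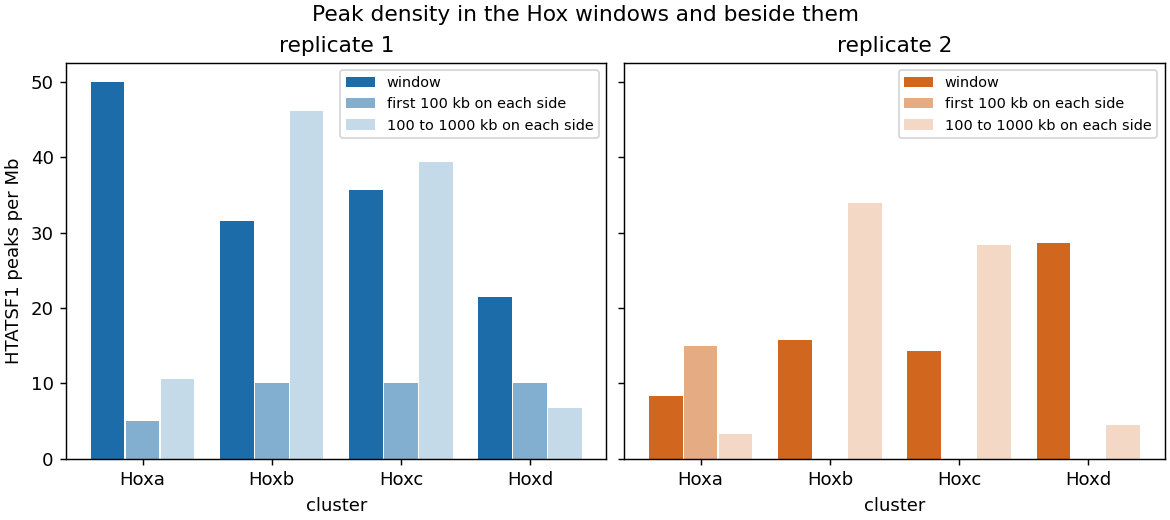
Bars give HTATSF1 peaks per Mb (y) for each cluster (x) in the window, in the first 100 kb on each side of it, and from 100 to 1000 kb on each side, with a panel per list. The first 100 kb is empty at Hoxb, Hoxc and Hoxd in replicate 2, and the outer flanks are denser at Hoxb and Hoxc than at Hoxa and Hoxd.

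The ground just outside the windows held few peaks. This was noticed after the values were seen and is given as a description. In the first 100 kb on each side, over all 4 clusters, replicate 1 had 7 peaks in 800 kb (8.75 per Mb) and replicate 2 had 3 (3.75 per Mb). The windows themselves had 33.9 and 16.9 per Mb, and the flanks beyond 100 kb had 25.7 and 17.5 per Mb. In both lists this was the lowest density among the 10 bins of 100 kb, the others holding at least 20 per Mb in replicate 1 and 11.2 per Mb in replicate 2. By cluster, replicate 1 had 1 peak in these strips at Hoxa and 2 at each of Hoxb, Hoxc and Hoxd. In replicate 2 all 3 were at Hoxa, where the strips were denser (15.0 per Mb) than the window (8.33 per Mb), and none was at Hoxb, Hoxc or Hoxd. At Hoxd in replicate 1 the strips (10 per Mb) were sparser than the window but denser than the flanks beyond them (6.67 per Mb). The low density of the strips in the pooled values therefore did not hold in each cluster and list.

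**Figure D4:**
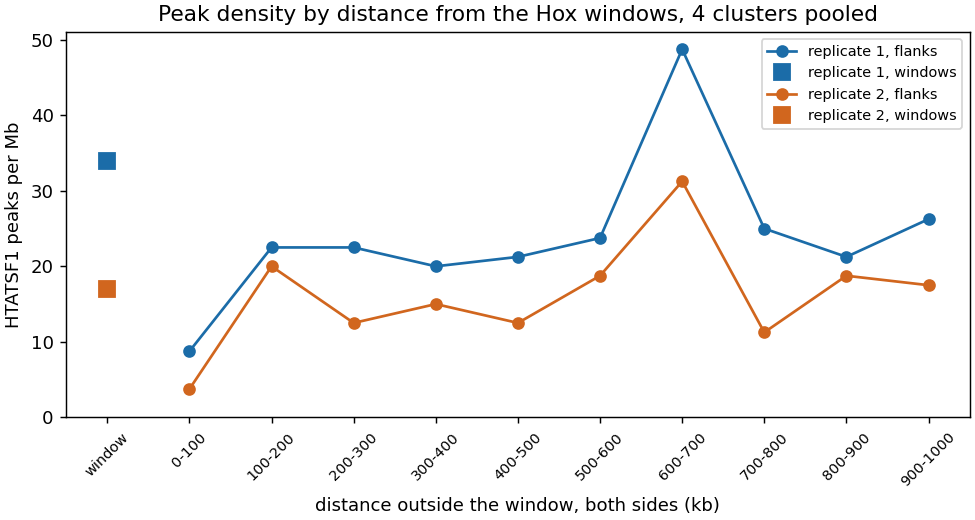
HTATSF1 peaks per Mb (y) in the 4 Hox windows together (squares) and in bins of 100 kb outward from the window limits on both sides (points, x), per list. The bin next to the windows is the lowest in both lists, at 8.75 and 3.75 per Mb.

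The Hoxd peaks of replicate 2 lay far from any other. In that list no peak was found for 743.9 kb below the first peak of the window, or for 928.9 kb above the last, so its 4 peaks were the only ones in 1722 kb of chromosome 2. Only 39 of the 1075 gaps between peaks on that chromosome (3.63%) were longer than the upper one. In replicate 1 the nearest peaks outside were closer, 62.6 kb below the window at chr2:74416920-74417423 (score 92.7) and 43.6 kb above it at chr2:74663582-74663988 (55.7). Neither was shared, and these were the only flank peaks within 700 kb on either side. In the gene order of GRCm38 the protein-coding neighbours are Evx2, another homeobox gene, and Lnpk, an endoplasmic reticulum protein, before Hoxd13, and Mtx2, a mitochondrial import protein, after Hoxd1.

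At Hoxb the empty ground lay on 1 side. Above the window the next peak of both lists was the shared place chr11:96558157-96558585 (score 71.0) and chr11:96558184-96558543 (92.8), 318.2 kb outside. Within replicate 2 this left 435.1 kb without a peak after the last member. That gap was exceeded by 50 of 1277 on chromosome 11 (3.92%). In replicate 1, where the last members lie further along, it was 342.0 kb. Below the window the nearest peaks were at 54.9 kb in replicate 1 and 122.9 kb in replicate 2. In the gene order of GRCm38, Skap1, an adaptor of immune cell signalling, follows Hoxb1, then Snx11 and Cbx1, a heterochromatin protein. Ttll6, Calcoco2 and Atp5g1 lie before Hoxb13. The highest-ranked flank peaks were at chr11:95245505-95246385 in replicate 1 (score 393.2, percentile 99.2) and chr11:95868182-95868882 in replicate 2 (196.8, percentile 96.0).

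At Hoxc the nearest peaks below the window were 156.0 kb (replicate 1) and 166.6 kb (replicate 2) outside it, and those above were 85.2 and 113.5 kb outside. In replicate 1 the last 82.8 kb of the window, 59.1% of it, had no peak, and this was part of a gap of 167.9 kb. Of the 864 gaps on chromosome 15, 11.3% were longer. In replicate 2 the last 64.8 kb were empty. The highest-ranked flank peak of replicate 1, chr15:102501117-102501865, had a score of 443.3 (percentile 99.6) and was shared. In replicate 2 it was chr15:102348608-102349306 (195.1, percentile 95.9), also shared. Both are on the lower side, where Calcoco1 and Atp5g2 precede Hoxc13 in GRCm38. Smug1, a DNA repair glycosylase, Cbx5, a heterochromatin protein, and Hnrnpa1, a splicing regulator, follow Hoxc4.

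At Hoxa the place nearest above the window was shared: chr6:52255833-52256436 in replicate 1 (score 161.5, percentile 81.5) and chr6:52256020-52256180 in replicate 2 (51.3, percentile 4.58), 35.8 and 36.0 kb outside. Its ranks in the lists were far apart. Below the window replicate 2 had 2 unshared peaks within 100 kb. They were chr6:52053970-52054185 (69.35, percentile 45.7), 45.8 kb outside, and chr6:52028610-52028955 (116.7, percentile 81.4), 71.0 kb outside. In replicate 1 the nearest lay 137.4 kb outside, at chr6:51962070-51962607 (90.1). The highest-ranked flank peak of replicate 1, chr6:51419679-51420958 (432.7, percentile 99.6), was 679 kb below the window. In GRCm38 Skap2 and Snx10 lie before the cluster, with Cbx3 and Hnrnpa2b1 beyond them, and Evx1, a homeobox gene, and Hibadh lie after Hoxa13. Members of the Skap, Snx, Cbx and Evx families thus flank more than one cluster, as is known for these duplicated regions.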

How the data were processed

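HTATSF1 ChIP-seq peak lists of 2 immunoprecipitated libraries were used, grouped and numbered by sample title. The authors deposited 1 list per library, not a pooled one, with a position and a score for each peak; peak names begin with MACS. Per the submitters' processing notes, Bowtie, Picard 1.82 and bedtools were used and the build was mm9. The peak caller's version, threshold and control, and the meaning of the deposited score, were not given in the sources used here. Depth is unknown. Positions are printed counted from 1, other values as deposited.

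Members were all peaks overlapping the 4 windows; each was named, as were the nearest and the highest-ranked peak of every flank and neighbouring protein-coding genes by order. The windows, lists and comparisons were chosen with earlier results of these data known. Peaks were shared at an overlap of at least 1 bp. Same-length windows were laid along each chromosome exhaustively in place of random draws. Binomial intervals are exact (Clopper-Pearson, 95%); density ratios use the same interval on window and flank counts. No p-value was computed, since peaks are not replicates. Counts of start sites with a peak were not run, since no annotation of mm9 was used. Base composition of member promoters was void as a check: 22 of 38 members (57.9%) had a sequence among the reference promoter sequences, under the 80% needed. The code was tested on simulated lists. Computation used Python 3.11.15 with pandas 2.3.3, scipy 1.17.1, matplotlib 3.10.9 and numpy 2.4.6.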

Additional observations from a re-analysis of the deposited data

How the results depend on the processing

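When only the upper 50% of a list by score was kept, the 4 windows held 6 peaks in replicate 1 and 5 in replicate 2, of which 3 and 3 were shared. Their density over the flanks was then 0.914 and 0.969, on the other side of 1. With lists of equal length, added after the data were seen, replicate 1 kept 11 members. With limits moved outward by 20 kb the replicate 2 density ratio was 0.827. By cluster, the upper 50% left no peak, and so a ratio of 0, at Hoxd in replicate 1 and at Hoxa and Hoxc in replicate 2. The Hoxc ratio of replicate 1 was 1.14 with limits moved inward by 10 kb, 1.12 with flanks of 500 kb, 1.40 with flanks of 2 Mb and 1.02 with peaks under 1 kb apart merged. The cause was not tested, except that fewer peaks were compared in the upper 50% and in the equal lists. Over all 4 windows, 34 of 42 alternative values stayed within the limits set. For a count this was within 1.5 times the reported one. A ratio or median had to stay inside its 95% interval, and a ratio also on its side of 1. The median intervals were wide, 12.78 to 51.21 in replicate 1 and 2.855 to 76.65 in replicate 2. In the upper 50%, percentiles were ranked anew within the cut list, so those medians cannot be compared with the reported ones. The tally is thus a loose measure of stability. The Hoxd and Hoxa ratios stayed above 1 under all settings run other than the upper 50%. With flanks of 500 kb the Hoxd ratio of replicate 2 has no value, its flanks holding no peak. The base composition and start site alternatives were not run. Leaving out a replicate gives no value, since each list is reported alone and sharing needs both. No paired analysis was possible because only immunoprecipitated libraries entered, and these form 1 group. Unknown depth limits how far an absent peak can be read.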
